A study of Mus musculus with 13 samples.

Results

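Scavenger and efferocytosis receptors were examined in bone marrow-derived macrophages (BMDMs) stimulated with lipopolysaccharide (LPS), a component of the outer membrane of Gram-negative bacteria. The set held 10 genes chosen by name: the scavenger receptors Msr1, Cd36, Marco, Olr1, Stab1 and Mrc1, the efferocytosis receptors Lrp1, Mertk and Axl, and Gas6, the ligand that bridges Mertk and Axl to dying cells. Each was represented by the RefSeq transcript with the highest total count of its symbol, so that the set is 10 of the 24445 gene symbols of the count table. All 10 passed the filter on low counts. The cells were grown in medium conditioned by L929 fibroblasts from the bone marrow of female C57Bl/6J mice. Control mice carried Acly alleles with loxP sites around an exon (Acly fl/fl). AclyM-KO mice carried the same alleles and Cre driven from Lyz2, a lysozyme gene used by macrophages, neutrophils and other myeloid cells, which removes that exon of ATP citrate lyase, the enzyme that makes cytosolic acetyl-CoA from citrate. All cells analysed here had received LPS, for 3 h or for 24 h, in 3 control and 3 AclyM-KO libraries at 3 h and in 4 control and 3 AclyM-KO libraries at 24 h. Unstimulated libraries were not analysed here, so that no value below is a change from the resting state, and the age of the mice is not given in the sources used here.

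Macrophages clear lipoproteins, glycoproteins, bacteria and dead cells with receptors that recognise broad classes of surface rather than a single ligand. Scavenger receptors bind modified lipoproteins and microbial polyanions and carry them into lysosomes. In efferocytosis, phosphatidylserine exposed on a dying cell is bound either directly or through bridging proteins, and receptor tyrosine kinases of the TAM family (Tyro3, Axl and Mertk) and Lrp1 then direct its engulfment. Inflammatory stimuli are known to shift macrophages between different receptors of this repertoire.

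Total counts per library were 21274102 to 59577343 (median 22683294) in 12 libraries. Levels are in CPM, counts put on a common scale by TMM factors, which correct for differences in composition. Acly, the deleted gene, stood at 104.5, 107 and 106 CPM in the control and 37.7, 46.2 and 41.5 CPM in the AclyM-KO libraries at 3 h, and at 113, 109 and 107 against 30.1, 30.5 and 29.0 CPM at 24 h. It was thus 2.53-fold (log2 fold change -1.34) and 3.67-fold (-1.88) lower with the deletion, and the groups did not overlap. The 7 macrophage markers were all present. Their summed level was 9870 to 9957 CPM in control and 6824 to 7747 CPM in AclyM-KO BMDMs at 3 h, and 5912 to 6215 against 4432 to 4525 CPM at 24 h. Without Lyz2, the gene that carries the Cre, the sums were 4605 to 4738 against 4552 to 4804 CPM and 3518 to 3695 against 3488 to 3666 CPM. Markers of neutrophils summed to at most 15.3 CPM and those of endothelial cells to at most 53.6 CPM in any library. Those of dendritic, B, T and NK cells, fibroblasts, mast cells and basophils summed to at most 2.69 CPM, and the 3 erythroid markers were at 0. Within groups, AclyM-KO 3 h replicates 1 and 2 stood furthest apart (chi-square per degree of freedom 11.7, with 2.45 to 7.22 for all other pairs). Replicate 2 is named below where a result turns on it, and counts without each of these libraries are in the closing section. The labels number the replicates but do not say whether they came from separate mice, so that p-values measure the spread between these libraries, which may be technical. In bulk RNA, fewer cells that make a transcript and less of it per cell cannot be told apart.

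The remaining library, labelled control 24 h replicate 1, held 34467 counts. Its receptor counts went against its label. It had 0 counts of Marco and of Axl, 13 of Gas6 and 20 of Mrc1. On the scale of CPM of the library total, without TMM, the 95% Poisson interval of its value held the range of the 3 control libraries at 3 h for 9 of the 10 genes, and that of the other control libraries at 24 h for 2, Msr1 and Mertk. Cd36 was above both, at 841 CPM of total (interval 563 to 1208) against 419 to 474 at 3 h and 221 to 266 at 24 h. Gas6 stood at 377 CPM of total (interval 201 to 645) against 415 to 423 at 3 h and 41.9 to 42.8 at 24 h. These intervals cover counting error only. The library was left out of the values and tests below, which rest on 12 libraries with n = 3 per group, and what changes with it is given beside the results and in the closing section.

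**Figure D1:**
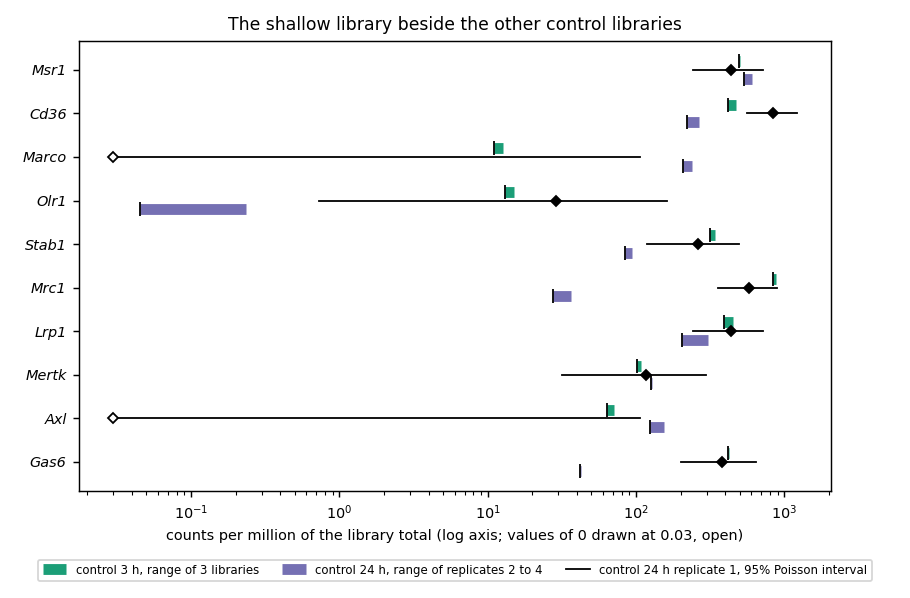
CPM of the library total (log axis) of the 10 genes in the library labelled control 24 h replicate 1 (diamonds with 95% Poisson intervals, open where the count was 0), with the range of the 3 control libraries at 3 h (green) and of control replicates 2 to 4 at 24 h (purple). For Mrc1, Gas6 and Stab1 the interval holds the 3 h range and lies above the 24 h range, whereas for Msr1 and Mertk it holds both.

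Receptor levels differed over a wide range, and LPS time reordered them. On the scale of CPM per kilobase of transcript, which allows genes to be compared, control BMDMs at 3 h held most of Msr1 (384 ± 4.36, SD, n = 3). Cd36 (181 ± 9.84), Gas6 (180.3 ± 2.65) and Mrc1 (176 ± 3.21) followed and did not differ beyond their spread. Stab1 (45.1 ± 1.33), Lrp1 (31.1 ± 2.43), Mertk (26.8 ± 1.25), Axl (19.0 ± 1.24) and Marco (6.87 ± 0.451) came next in that order, each apart from its neighbour by more than their SDs. At 24 h Msr1 still led (361 ± 22.2), Marco came next (104 ± 7.11), and Cd36 (81.7 ± 7.93), Axl (32.4 ± 3.50) and Mertk (26.9 ± 0.160) followed. Lrp1 (16.1 ± 3.15) and Gas6 (15.1 ± 0.148) did not differ beyond their spread, Stab1 stood at 10.03 ± 0.534, and Mrc1 was last (5.22 ± 0.820). The order was the same in AclyM-KO BMDMs at 24 h, where Marco (84.7 ± 4.76) and Cd36 (83.3 ± 13.3) did not differ beyond their spread. At 3 h in AclyM-KO BMDMs, Cd36 (240.3 ± 59.6), Gas6 (197 ± 5.57) and Mrc1 (184 ± 4.81) were again next to Msr1 (375 ± 17.01). Lengths are those of the longest GENCODE transcript matched to each RefSeq transcript, so that the order depends on this match. Olr1 was left out of the order, since its matched transcript is 570 bases long and may not span the whole gene. The place of Msr1 rests on a matched length of 1424 bases.

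**Figure D2:**
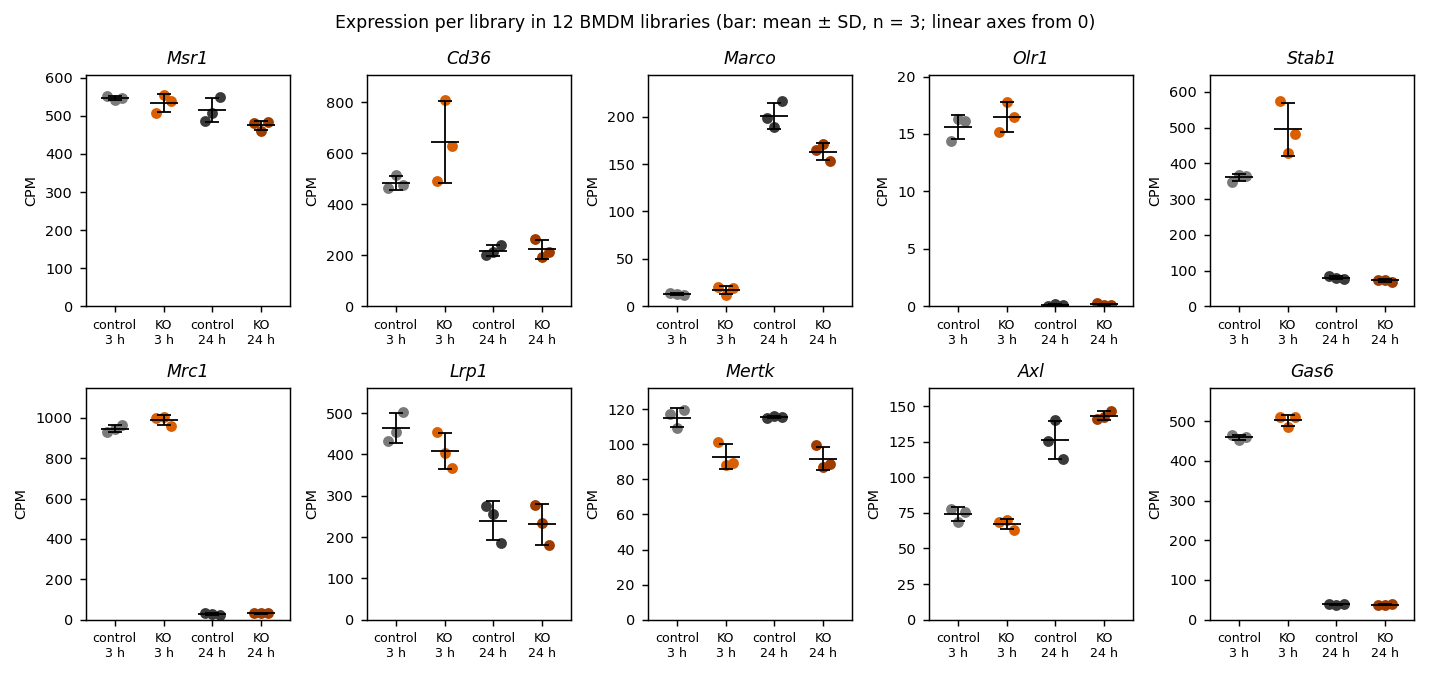
Level of each of the 10 genes in every library, in CPM after TMM scaling (linear axes from 0), in control and AclyM-KO (KO) BMDMs after 3 h and 24 h LPS. Points are libraries and bars the mean ± SD (n = 3). Mrc1, Gas6, Stab1 and Olr1 drop at 24 h, Marco and Axl rise, and Mertk has its AclyM-KO points below the controls at both times. With library totals in place of TMM, Mertk is higher at 24 h than at 3 h in both genotypes and Msr1 in control BMDMs, while the Msr1 value in AclyM-KO BMDMs is 0.07 on the log2 scale (adjusted p = 0.175).

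Of the 10 genes, 8 differed between the LPS times in control BMDMs, which is the comparison of cells late and early in the response. Marco and Axl were higher and Olr1, Mrc1, Gas6, Stab1, Cd36 and Lrp1 were lower at 24 h than at 3 h (edgeR's quasi-likelihood test, adjusted p under 0.05 and a log2 fold change beyond 0.75). This count stands against 40.4% of the 11904 genes tested, 20.9% higher and 19.5% lower. The median log2 fold change was -1.05 for the 10 genes and 0.04 for all genes. In AclyM-KO BMDMs the same 8 genes differed in the same directions, against 41.9% of all genes (21.9% higher and 20% lower), with medians of -1.18 and 0.04. The level of all genes at 24 h against 3 h depends on the scaling. With library totals in place of TMM factors, the median of all genes moved up by 0.275 in control and 0.244 in AclyM-KO BMDMs on the log2 scale, and the split of calls over all genes moved from 2485 higher and 2321 lower to 3648 and 1696 in control BMDMs and from 2609 and 2383 to 3588 and 1815 in AclyM-KO BMDMs. Under that scaling 2 of the 10 genes were higher and 5 lower in either genotype, since Lrp1 fell short of the fold.

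**Figure D3:**
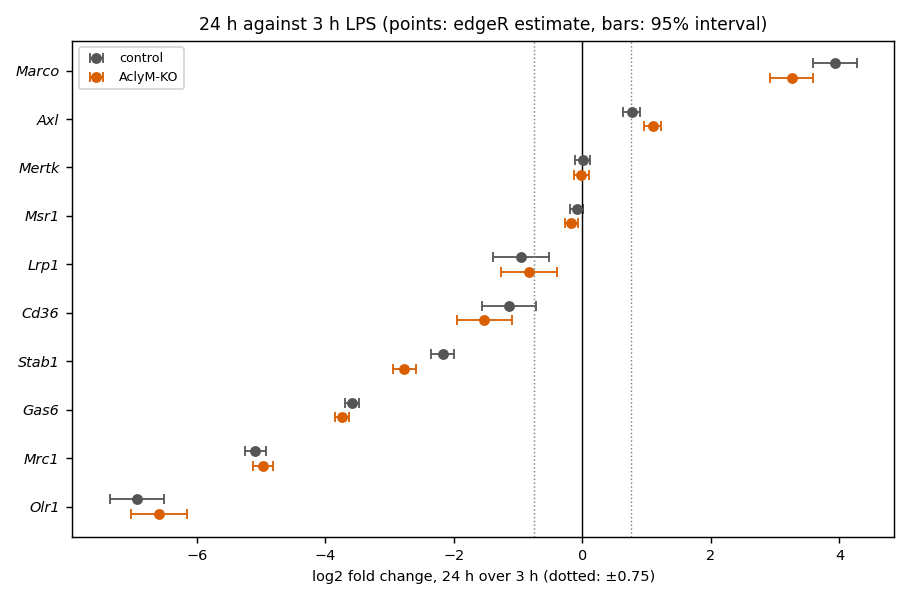
Log2 fold change of the 10 genes at 24 h over 3 h LPS, with 95% intervals, in control (grey) and AclyM-KO (orange) BMDMs; dotted lines mark a log2 fold change of 0.75 either way. Olr1 lies lowest and Marco highest in both genotypes, and the intervals of Mertk hold 0, though its estimates are 0.28 and 0.23 with library totals.

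Promoter sequences are shown for Marco, Mrc1 and Olr1, which had the largest changes between LPS times in control BMDMs, for Stab1, whose genotype effect differed between the times, and for Mertk, which was lower with the deletion at both times. RefSeq gave a sequence for 9 of the 10 genes, and the entry for Msr1 was missing. Each run is the 250 bases before the annotated start, 5′ to 3′ on the gene's strand (build GRCm38.p6). The start used can differ from the end of the gene span given below. The Cd36 window, not shown, lies inside the span of Cd36, and the Mrc1 window ends inside that of Mrc1. Capitals mark matches, on either strand, of 6 motifs that do not overlap one another here. GAGGAA is the core bound by PU.1, the factor that specifies macrophages. TGANTCA is the site of AP-1. TTCNNNGAA is the GAS element bound by STAT factors. TATAAA is a core promoter element, and the ISRE of interferon responses and the kappaB motif bound by NF-kappaB were searched as well.
Marco (chr1:120505025-120505274, minus strand): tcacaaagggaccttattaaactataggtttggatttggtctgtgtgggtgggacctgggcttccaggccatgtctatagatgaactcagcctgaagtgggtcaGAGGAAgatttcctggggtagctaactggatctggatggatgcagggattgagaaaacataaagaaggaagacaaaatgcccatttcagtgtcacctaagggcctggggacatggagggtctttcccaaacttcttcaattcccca
Mrc1 (chr2:14229164-14229413, plus strand): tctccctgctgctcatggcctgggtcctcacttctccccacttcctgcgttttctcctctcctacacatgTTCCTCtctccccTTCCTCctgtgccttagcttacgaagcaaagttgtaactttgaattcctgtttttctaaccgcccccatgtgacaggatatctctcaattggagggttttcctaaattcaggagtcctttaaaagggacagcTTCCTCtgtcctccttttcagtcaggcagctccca
Stab1 (chr14:31168642-31168891, minus strand): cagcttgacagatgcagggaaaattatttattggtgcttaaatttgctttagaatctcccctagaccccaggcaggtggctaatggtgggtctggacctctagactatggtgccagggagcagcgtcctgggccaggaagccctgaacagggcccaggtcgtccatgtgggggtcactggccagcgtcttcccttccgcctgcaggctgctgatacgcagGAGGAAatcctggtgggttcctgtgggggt
Olr1 (chr6:129507166-129507415, minus strand): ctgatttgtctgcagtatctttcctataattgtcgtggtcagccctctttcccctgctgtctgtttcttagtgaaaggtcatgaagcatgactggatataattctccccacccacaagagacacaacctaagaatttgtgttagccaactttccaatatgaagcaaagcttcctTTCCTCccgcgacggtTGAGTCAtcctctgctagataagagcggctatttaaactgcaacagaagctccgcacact
Mertk (chr2:128698665-128698914, plus strand): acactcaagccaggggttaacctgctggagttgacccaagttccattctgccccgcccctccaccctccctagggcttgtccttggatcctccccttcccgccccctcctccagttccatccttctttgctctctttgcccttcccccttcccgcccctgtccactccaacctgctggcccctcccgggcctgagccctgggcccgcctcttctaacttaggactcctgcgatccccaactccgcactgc
GAGGAA was found in 5 of the 9 windows (Marco, Olr1, Stab1, Axl and 3 matches in Mrc1), against 23.3% of 32851 windows of all genes. It stands 146 to 141 bases before the start in Marco and 35 to 30 bases before it in Mrc1, and thus occurs in a gene that was higher and in genes that were lower at 24 h. TGANTCA was found in Olr1 alone (6.75% of all windows) and TTCNNNGAA in Lrp1 alone (7.02%). The kappaB motif (7.25%), the ISRE (2.98%) and TATAAA (12.4%) were in none of the 9. Mertk, with none of the 6 motifs, had a GC content of 63.6%, against a median of 52.4% over all windows, and Marco had 47.6% and 0 CpG dinucleotides. A match describes letters only, and no match says only that these letters are not in this window.

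Marco, a scavenger receptor of class A that binds bacteria and particles (chromosome 1, 120474538 to 120505024, minus strand, in GRCm38, the assembly of mm10), went from the lowest of the receptors ordered by level per kilobase to next below Msr1. It stood at 13.9, 13.5 and 12.3 CPM in control BMDMs at 3 h and at 198, 189 and 216 CPM at 24 h. It was 15.2-fold higher (log2 3.93, SE 0.15, adjusted p = 1.78e-09). In AclyM-KO BMDMs the values were 20.4, 12.1 and 19.1 CPM at 3 h and 165, 171 and 153 CPM at 24 h, a 9.54-fold difference (log2 3.25, SE 0.15, adjusted p = 6.51e-09). All 24 h libraries were far above all 3 h libraries, and among the AclyM-KO libraries at 3 h replicate 2 was the low one.

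Mrc1, the mannose receptor CD206, an endocytic lectin used as a marker of alternatively activated macrophages (chromosome 2, 14229392 to 14332057, plus strand), went the opposite way. Control BMDMs held 928.5, 946 and 963 CPM at 3 h and 33.1, 25.7 and 25.2 CPM at 24 h. AclyM-KO BMDMs held 1001, 1005 and 958.5 CPM at 3 h and 31.1, 33.0 and 30.7 CPM at 24 h. Mrc1 fell by 5.09 on the log2 scale in control BMDMs (34.0-fold, SE 0.08, adjusted p = 2.3e-25) and fell by 4.97 in AclyM-KO BMDMs (31.3-fold, SE 0.08, adjusted p = 3.88e-25). The miRNA gene Mir511 lies inside Mrc1 on the same strand, so that its precursor reads cannot be told from those of Mrc1.

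Olr1, or LOX-1, which binds oxidised low density lipoprotein (chromosome 6, 129485244 to 129507165, minus strand), was lowly expressed at 3 h and nearly absent at 24 h. Its counts in control BMDMs were 290, 349 and 324 at 3 h (14.4, 16.3 and 16.1 CPM) and 1, 5 and 8 at 24 h. In AclyM-KO BMDMs they were 296, 407 and 342 at 3 h (15.2, 17.8 and 16.4 CPM) and 7, 3 and 3 at 24 h. Summed over libraries and set against their totals, the 3 h level was 105 times the 24 h level in control BMDMs (95% interval 62.1 to 192) and 83.4 times in AclyM-KO BMDMs (48.5 to 157), where the intervals cover counting error only. The fitted log2 fold changes were -6.93 (SE 0.21) and -6.58 (SE 0.21), with adjusted p-values of 2.59e-23 and 1.61e-22. With the library labelled control 24 h replicate 1, which holds 1 count of Olr1, the mean of control BMDMs at 24 h moved from 0.125 to 5.695 CPM.

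Stab1, or stabilin-1, an endocytic receptor for acetylated lipoprotein and matrix proteins of macrophages and sinusoidal endothelium (chromosome 14, 31139013 to 31168641, minus strand), was also lower late in the response. It stood at 349, 368 and 366 CPM in control BMDMs at 3 h and at 85.0, 78.8 and 76.9 CPM at 24 h. In AclyM-KO BMDMs it stood at 575, 429 and 483 CPM at 3 h and at 75.01, 74.3 and 68.8 CPM at 24 h. The fall was 4.50-fold in control (log2 -2.17, SE 0.08, adjusted p = 1.56e-13) and 6.82-fold in AclyM-KO BMDMs (log2 -2.77, SE 0.08, adjusted p = 7.01e-15). Nt5dc2 overlaps its end on the other strand.

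Cd36, a class B receptor that takes up oxidised lipoproteins and long-chain fatty acids (chromosome 5, 17781690 to 17888801, minus strand), was 2.21-fold lower at 24 h in control BMDMs (log2 -1.14, SE 0.18, adjusted p = 4.04e-04). The libraries held 462, 513 and 476 CPM at 3 h and 199.8, 215 and 242 CPM at 24 h. In AclyM-KO BMDMs the values were 492, 809.9 and 628 CPM at 3 h and 263, 194 and 213 CPM at 24 h, a 2.88-fold difference (log2 -1.53, SE 0.19, adjusted p = 5.77e-05). Replicate 2 at 3 h was the highest Cd36 library. Without it the log2 fold change in AclyM-KO BMDMs was -1.35.

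Msr1, the class A receptor SR-A for acetylated lipoprotein and bacterial surfaces (chromosome 8, 39581685 to 39642673, minus strand), was the most abundant of the genes ordered per kilobase in all 4 groups and moved little. That rank rests on a matched length of 1424 bases, and whether it spans the whole transcript was not tested. In CPM at 3 h, Mrc1 stood above Msr1 in control (946 against 547) and AclyM-KO BMDMs (988 against 534). Control BMDMs held 553, 541 and 547 CPM at 3 h and 487, 507 and 549 CPM at 24 h, which overlap. AclyM-KO BMDMs held 508, 556 and 539 CPM at 3 h and 481, 461 and 483 CPM at 24 h. The log2 fold changes were -0.09 (interval -0.19 to 0.01, adjusted p = 0.103) and -0.17 (interval -0.27 to -0.07, adjusted p = 0.00283), both short of the fold required, and with library totals they were 0.19 (adjusted p = 0.00121) and 0.07 (adjusted p = 0.175). Without control 24 h replicate 4 the control value was -0.14 (adjusted p = 0.0169).

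Gas6, the vitamin K-dependent ligand of the TAM receptors (chromosome 8, 13465374 to 13494490, minus strand), had the smallest p-value of the 10 genes at both time comparisons. Control BMDMs held 466, 452 and 460.3 CPM at 3 h and 38.8, 38.0 and 38.4 CPM at 24 h. AclyM-KO BMDMs held 512, 486 and 509.9 CPM at 3 h and 37.3, 36.5 and 39.5 CPM at 24 h. It fell by 3.58 on the log2 scale in control BMDMs (11.97-fold, SE 0.05, adjusted p = 4.76e-31) and fell by 3.73 in AclyM-KO BMDMs (13.3-fold, SE 0.05, adjusted p = 3.2e-31). Tmem255b overlaps Gas6 on the other strand.

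Of the receptors for Gas6, Axl was higher at 24 h and Mertk was not called between the times. Axl, which in macrophages is known as the TAM receptor of inflammatory settings (chromosome 7, 25757273 to 25788705, minus strand), stood at 77.9, 68.7 and 75.8 CPM at 3 h and 125, 140.3 and 113 CPM at 24 h in control BMDMs. The AclyM-KO libraries held 68.8, 69.9 and 63.1 CPM at 3 h and 141, 142 and 147 CPM at 24 h. Axl was 1.70-fold higher in control (log2 0.76, SE 0.07, adjusted p = 2.82e-11) and 2.13-fold higher in AclyM-KO BMDMs (log2 1.09, SE 0.07, adjusted p = 1.45e-14), and no 24 h library overlapped a 3 h library. The control value lay just past the fold required. It was 0.74 with DESeq2's size factors, 0.746 with DESeq2's test, 0.68 without control 24 h replicate 3, 0.72 without control 3 h replicate 2 and 1.04 with library totals. Mertk, the TAM receptor of macrophages that clear dying cells at rest (chromosome 2, 128698956 to 128802894, plus strand), stood at 117, 109 and 119 CPM at 3 h and 115, 116 and 115 CPM at 24 h in control BMDMs. In AclyM-KO BMDMs it stood at 101, 88.3 and 89.3 CPM at 3 h and 99.4, 87.1 and 88.8 CPM at 24 h. The log2 fold change between times was 0.004 in control (interval -0.12 to 0.12, adjusted p = 0.956) and -0.02 in AclyM-KO BMDMs (interval -0.14 to 0.11, adjusted p = 0.817). With library totals these values were 0.28 (adjusted p = 2.71e-05) and 0.23 (adjusted p = 4.04e-04), close to the shift of the median of all genes. Gm23172, a snoRNA gene on the same strand, and Gm14011, on the other, lie within Mertk.

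Lrp1, a large receptor of the low density lipoprotein receptor family that binds calreticulin on dying cells (chromosome 10, 127538161 to 127621148, minus strand), was lower at 24 h. Control BMDMs held 433, 454 and 503 CPM at 3 h and 276, 256 and 187 CPM at 24 h, and AclyM-KO BMDMs held 455, 404 and 368 CPM at 3 h and 278, 233 and 180.5 CPM at 24 h. The log2 fold changes were -0.96 (SE 0.19, adjusted p = 0.00146) and -0.83 (SE 0.19, adjusted p = 0.00341). With library totals they were -0.68 and -0.58, and in AclyM-KO BMDMs the value was -0.68 without 24 h replicate 3 and -0.747 without 3 h replicate 1, below the fold required. The GENCODE transcript matched to Lrp1 is 14888 bases long, and the spread of Lrp1 within groups moved with that of other long transcripts. Over 380 transcripts of more than 8000 bases, the median deviation from the group mean was lowest at 24 h in AclyM-KO replicate 3 (-0.05, with Lrp1 at -0.36) and control replicate 4 (-0.07, with Lrp1 at -0.31), on the log2 scale. The part of transcript length or RNA quality in the Lrp1 values was not tested. The antisense gene Gm16217 lies within Lrp1 on the other strand.

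The deletion of Acly changed none of the 10 genes by the fold required. At 3 h 0 of 10 were called, against 2.01% of all genes, and at 24 h 0 of 10, against 1.38%. By adjusted p alone, 2 genes passed at 3 h (Stab1 and Mertk, against 15.4% of all genes) and 2 at 24 h (Mertk and Axl, against 13.9%), and an unadjusted p under 0.05 was reached by 4 genes at 3 h and 5 at 24 h, against 27.9% and 26.3% of all genes. DESeq2 also called 0 of 10 at either time. The control and AclyM-KO libraries did not overlap for 3 genes at 3 h (Stab1, Mertk and Gas6, against 30.1% of all genes) and for 5 at 24 h (Msr1, Marco, Stab1, Mertk and Axl, against 33.1%). The median log2 fold change of the 10 genes was 0.07 at 3 h and -0.04 at 24 h, beside -0.01 and 0.01 for all genes.

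**Figure D4:**
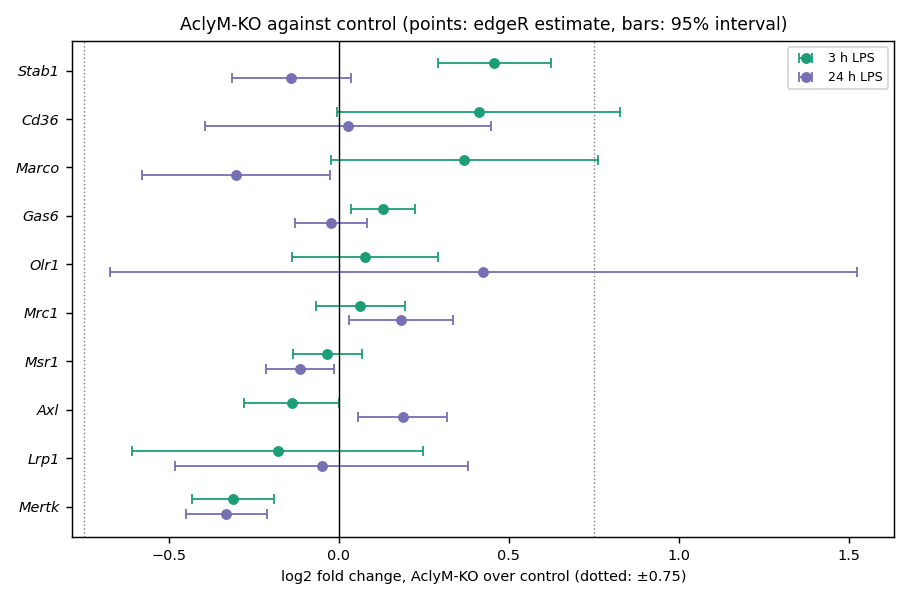
Log2 fold change of the 10 genes in AclyM-KO over control BMDMs after 3 h (green) and 24 h (purple) LPS, with 95% intervals; dotted lines mark a log2 fold change of 0.75 either way. All estimates lie inside the dotted lines, Mertk is below 0 at both times, and Stab1 and Axl have their times on opposite sides of 0.

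Mertk was lower in AclyM-KO BMDMs at both times by about the same amount. All 3 AclyM-KO libraries were below all 3 control libraries at 3 h (88.3 to 101 against 109 to 119 CPM) and at 24 h (87.1 to 99.4 against 115 to 116 CPM). The log2 fold change was -0.31 at 3 h (SE 0.06, 1.24-fold, adjusted p = 4.1e-04) and -0.33 at 24 h (SE 0.06, 1.26-fold, adjusted p = 1.49e-04). These passed the adjusted p under all 14 alternatives at each time, with values of -0.37 to -0.27 and of -0.39 to -0.30. The difference between the times was -0.02 (interval -0.19 to 0.15).

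Stab1 was 1.37-fold higher in AclyM-KO than in control BMDMs at 3 h (log2 0.46, SE 0.08, adjusted p = 8.2e-04), with 429 to 575 CPM against 349 to 368 CPM. At 24 h its log2 fold change was -0.14 (interval -0.32 to 0.04, adjusted p = 0.305), with 68.8 to 75.01 CPM against 76.9 to 85.0 CPM. That value passed in a fit of the 2 groups alone (-0.15, adjusted p = 0.0351) and with no low-count filter (-0.16, adjusted p = 0.0424). The genotype effect at 24 h minus that at 3 h was -0.60 (SE 0.11, adjusted p = 0.0031). The matched transcript of Stab1 is 7999 bases long, near the long transcripts set beside Lrp1. At 3 h the AclyM-KO values of Stab1 (575, 429 and 483 CPM) stood beside median deviations of 0.069, -0.080 and -0.075 for those transcripts. The control values (349, 368 and 366 CPM) stood beside -0.006, 0.013 and 0.093. The part of transcript length or RNA quality in the Stab1 values was not tested. Stab1 is also made by endothelial cells, whose 5 markers summed to 17.1 to 20.1 CPM in control and 20.9 to 23.9 CPM in AclyM-KO BMDMs at 3 h, and to 34.1 to 36.4 and 45.8 to 53.6 CPM at 24 h. Of the 3 of these markers tested, Pecam1 was higher in AclyM-KO BMDMs at 24 h (log2 1.17, adjusted p = 2.67e-05) and none was called at 3 h. The endothelial sum was highest in the group where Stab1 was lowest, but at 24 h most of it was Kdr. The mean of Kdr at 24 h was 32.2 CPM in control and 42.6 CPM in AclyM-KO BMDMs. Between the LPS times the 3 markers were split in either genotype, with 2 higher at 24 h (Kdr and Pecam1) and 1 lower (Cdh5). Cdh5 fell as Stab1 did, with log2 fold changes of -1.788 in control and -1.845 in AclyM-KO BMDMs, at low levels. The part of endothelial cells in the Stab1 values was not tested.

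Axl also differed between the times in its genotype effect, in the other direction. Its log2 fold change with the deletion was -0.14 at 3 h (interval -0.28 to -4.08e-04, adjusted p = 0.18) and 0.19 at 24 h (SE 0.06, 1.14-fold, adjusted p = 0.0464). The difference was 0.33 (SE 0.09, adjusted p = 0.0231). Stab1 and Axl were the 2 of 10 genes with an interaction of genotype and time past the adjusted p, against 9.53% of all genes. The Stab1 interaction passed under all 19 alternatives (-0.71 to -0.49) and that of Axl under 11 of 19, with adjusted p-values of 0.00419 to 0.11. Each of 6 libraries ended the Axl interaction when left out: AclyM-KO 24 h replicate 3 (0.31), AclyM-KO 3 h replicate 3 (0.28), control 24 h replicates 2 (0.32) and 4 (0.25), and control 3 h replicates 1 (0.27) and 3 (0.30). The 24 h difference itself passed under 3 of 14 alternatives, with adjusted p-values of 0.00603 to 0.4, and was lost when any 24 h library except control replicate 3 was left out.

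The other scavenger receptors showed small or variable differences. Marco had a log2 fold change of 0.37 at 3 h (interval -0.02 to 0.76, adjusted p = 0.208) and of -0.30 at 24 h (interval -0.58 to -0.03, adjusted p = 0.148), and the difference between them was -0.67 (SE 0.21, adjusted p = 0.0852). AclyM-KO 3 h replicate 2 was the Marco library at the level of the controls. Without it the 3 h value was 0.58 (adjusted p = 1.24e-06) and the difference -0.90 (adjusted p = 2.54e-09), and in all 12 libraries the difference passed with DESeq2 (-0.69, adjusted p = 0.0333) and with no low-count filter (-0.70, adjusted p = 0.00993). The 24 h value of Marco passed in a fit of the 2 groups alone (-0.32, adjusted p = 1.58e-05) and with no low-count filter (-0.33, adjusted p = 0.0334). Cd36 had 0.41 at 3 h (interval -0.01 to 0.83, adjusted p = 0.187), with 2 of the 3 AclyM-KO libraries above all controls, 0.21 without the same library and 0.57 (adjusted p = 0.0425) without AclyM-KO 3 h replicate 1. At 24 h it had 0.03 (interval -0.39 to 0.45). Mrc1 had 0.06 at 3 h and 0.18 at 24 h (interval 0.03 to 0.33, adjusted p = 0.105), where it had 0.31 (adjusted p = 7.54e-04) without control replicate 2, and its interaction then passed as well (0.25, adjusted p = 0.0433). Msr1 had -0.03 and -0.11 (interval -0.22 to -0.01, adjusted p = 0.125), and the latter passed in a fit of the 2 groups alone (-0.13, adjusted p = 0.0417). Olr1 had 0.08 at 3 h (interval -0.14 to 0.29) and 0.43 at 24 h (interval -0.67 to 1.525). The latter rests on 14 control and 13 AclyM-KO counts summed over libraries, too few to show a small difference. Of the remaining efferocytosis genes, Gas6 had 0.13 at 3 h (interval 0.03 to 0.22, adjusted p = 0.0566) and -0.02 at 24 h. The 3 h value passed with DESeq2 (0.13, adjusted p = 0.0192), with its size factors (0.14, adjusted p = 0.0453), with library totals (0.14, adjusted p = 0.0333) and without AclyM-KO replicate 2 (0.16, adjusted p = 0.0234). Lrp1 had -0.18 (interval -0.61 to 0.25) and -0.05 (interval -0.48 to 0.38).

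Genes that work beside these receptors were read from 6 lists of 78 genes, of which 67 were tested. In control BMDMs 11 were higher and 25 lower at 24 h than at 3 h, with a median log2 fold change of -0.43, against 20.9% and 19.5% of all genes. In AclyM-KO BMDMs 11 were higher and 28 lower, with a median of -0.44. With library totals the split was 17 higher and 20 lower in control and 13 and 24 in AclyM-KO BMDMs.

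The receptors and bridging molecules for apoptotic cells were mostly lower late in the response. Of 16 tested, 13 were lower and 1 higher at 24 h in either genotype, with medians of -1.61 in control and -2.08 in AclyM-KO BMDMs. Itgav, the integrin subunit that binds Mfge8-coated cells, fell by 3.58 on the log2 scale in control BMDMs (adjusted p = 1.57e-29), from 408 to 34.0 CPM. The TAM receptor Tyro3 fell by 3.38 (adjusted p = 1.68e-08) from 1.32 to 0.106 CPM, and Havcr2, or TIM-3, by 2.36 (adjusted p = 7.41e-13). Anxa1, the pro-resolving annexin A1, fell by 2.25 (adjusted p = 1.97e-13), from 696 to 146 CPM. The gene that was higher was Thbs1, thrombospondin-1, a bridging protein and ligand of Cd36, with a log2 fold change of 1.02 (adjusted p = 2e-15).

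Other scavenger receptors moved both ways. Of 11 tested, 1 was higher and 3 lower in control BMDMs. Ly75, or DEC-205, an endocytic receptor of the Mrc1 family, was higher by 4.62 (adjusted p = 3.9e-23), from 1.18 to 29.3 CPM. Cd163, the haemoglobin scavenger receptor, fell by 4.57 (adjusted p = 1.96e-21), Stab2, the paralog of Stab1, by 3.97 (adjusted p = 3.1e-19) and Colec12 by 1.38 (adjusted p = 1.38e-12). Of 18 genes of engulfment and corpse processing, 3 were higher and 4 lower in control BMDMs. Uvrag (1.91, adjusted p = 7.88e-21) and Atg5 (1.48, adjusted p = 1.55e-17), which serve autophagy and the processing of engulfed cargo, were higher. The Rac activator Dock1 fell by 1.56 (adjusted p = 1.58e-17) and the mitochondrial carrier Ucp2 by 1.30 (adjusted p = 1.19e-19).

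Of 6 genes that restrain uptake, Siglece, an inhibitory lectin, was higher by 4.86 (adjusted p = 2.23e-25) and Cd24a fell by 1.89 (adjusted p = 2.39e-10). Of 4 genes of receptor shedding, by which ADAM proteases release Mertk and other receptors from the surface, 3 were lower: Rhbdf1, a partner of Adam17, fell by 4.66 (adjusted p = 9.6e-13) at 2.35 CPM or less, its relative Rhbdf2 by 1.67 (adjusted p = 6.63e-17) and Adam17 itself by 0.86 (adjusted p = 8.54e-15). Of 12 nuclear receptors and transcription factors tied to these programmes, 5 were higher and 1 was lower. Klf4 (2.15, adjusted p = 2.16e-16) and Rxra (1.99, adjusted p = 8.54e-15) were higher, and Nr4a1 fell by 2.27 (adjusted p = 1.23e-04) at 0.776 CPM or less.

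**Figure D5:**
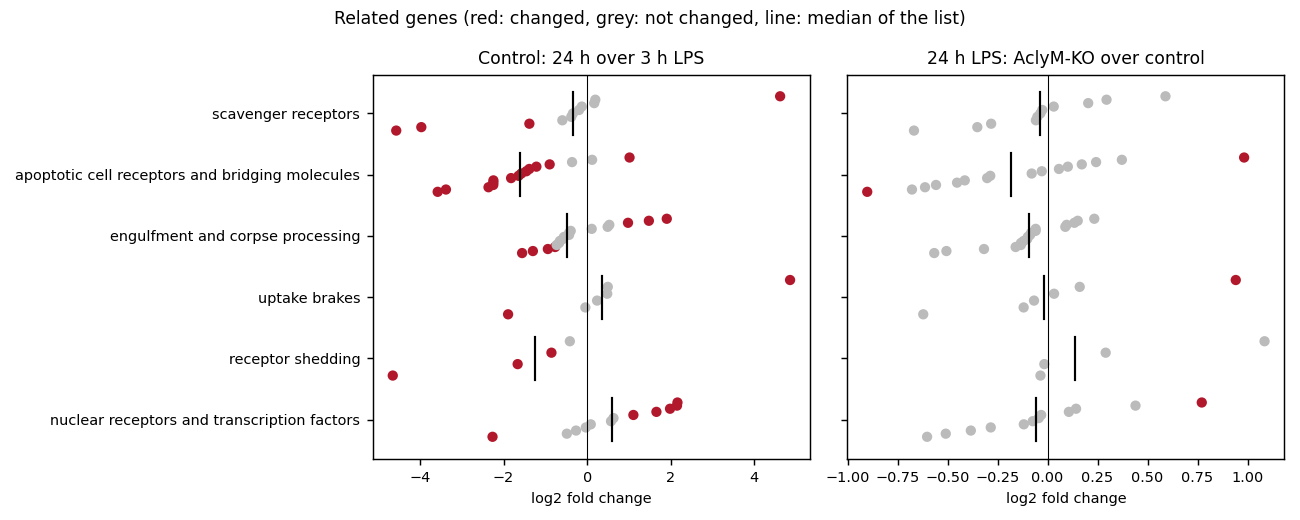
Log2 fold change of each tested gene of the 6 related lists, at 24 h over 3 h LPS in control BMDMs (left) and in AclyM-KO over control BMDMs at 24 h (right, on a narrower axis). Red points passed the adjusted p and the fold, grey points did not, and vertical bars are list medians. On the left 13 of the 16 genes of the apoptotic cell list are red and below 0, and on the right 4 of 67 genes are red.

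With the deletion, 2 of the 67 genes were higher and 0 lower at 3 h, and 3 were higher and 1 lower at 24 h, against 2.01% and 1.38% of all genes. Itgb3, the beta 3 integrin subunit and a partner of Itgav, was higher at 3 h (0.83, SE 0.18, adjusted p = 0.0116) and at 24 h (0.98, SE 0.18, adjusted p = 0.00409), at 14.7 against 26.1 CPM and 11.8 against 22.6 CPM. Klf4 was higher at 3 h (0.79, SE 0.14, adjusted p = 2.43e-04) and at 24 h (0.77, SE 0.09, adjusted p = 2.19e-07). Neither was called at 3 h without AclyM-KO replicate 2 and the count was 4 without AclyM-KO replicate 1. The 3 h count was 3 with DESeq2's size factors, with its test, with library totals and with 1 transcript per symbol. Scarb1 had 0.748 at 3 h (adjusted p = 2.59e-09), just short of the fold required. At 24 h Cd24a was higher (0.94, SE 0.20, adjusted p = 0.00154), at 1.26 against 2.48 CPM. C1qa, a chain of the complement component that coats dying cells, was lower (-0.90, SE 0.06, adjusted p = 9.99e-12), at 57.1 against 30.5 CPM. At 3 h C1qa had -0.55 (adjusted p = 6.58e-08), short of the fold required. The other chains were also lower but short of the fold. C1qb had -0.27 at 3 h (adjusted p = 1.47e-04) and -0.56 at 24 h (adjusted p = 1.15e-09). C1qc had -0.21 (adjusted p = 0.00488) and -0.68 (adjusted p = 1.18e-10).

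The genotype effect differed between the times for 14 of the 67 genes, 2 in the positive and 12 in the negative direction, against 9.53% of all genes, and for 9 without AclyM-KO 24 h replicate 3. Scarb1, the receptor for high density lipoprotein, had the largest difference among them (-1.10, SE 0.10, adjusted p = 1.73e-09), at 37.8 against 63.5 CPM at 3 h and 33.1 against 25.9 CPM at 24 h. The complement chains C1qa (-0.35, adjusted p = 0.00659), C1qb (-0.29, adjusted p = 0.00512) and C1qc (-0.47, adjusted p = 5.42e-05) were in the negative direction, as was Cd93 (-0.23, adjusted p = 0.0268). So were the TAM ligand Pros1 (-0.44, adjusted p = 0.0132), Dock1 (-0.44, adjusted p = 0.0143), Ucp2 (-0.42, adjusted p = 3.37e-04) and Sirpa, the receptor for the signal that spares healthy cells (-0.24, adjusted p = 0.00751). The transcription factors Maf (-0.43, adjusted p = 0.0257) and Nfe2l2 (-0.31, adjusted p = 0.0368) were also in the negative direction. Thbs1 (0.45, adjusted p = 7.42e-04) and Rab5a, a GTPase of early endosomes (0.28, adjusted p = 0.035), were in the positive direction.

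The genes most like Stab1 and Axl across the 12 libraries, by Pearson's r of log2 CPM among genes of at least 5 CPM, followed their time course. For Stab1 they were Ap2b1, Nlrp3 and Prdm1 (r = 0.997 for each), and for Axl they were Usp40 (0.990), Dnajc16 (0.989) and Cxxc1 (0.989). The points share libraries and the LPS time, and r is given as a description. Nlrp3 had log2 fold changes of -2.23 and -2.56 between times, close in size to those of Stab1, whereas Ap2b1 had -0.47 and -0.60.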

How the data were processed

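RNA-seq counts of 13 BMDM libraries were analysed. The authors prepared strand-specific libraries from mRNA, used STAR 2.5.2b for alignment to mm10 and SAMtools for filtering, and counted tags per RefSeq transcript with HOMER. CASAVA 1.8.2 is named in the submitters' processing notes. The deposited values are these raw counts, without normalization, for 35745 transcripts, and 0 columns were left unused. The strand and isoform settings of the counting are not given in the sources used here, so that reads of overlapping and antisense genes may be shared. A symbol was found in RefSeq and GENCODE tables for 35628 transcripts, and the 117 others (1.13% of counts) stayed in the fit. Groups follow the labelled genotype and LPS time.

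Counts of 12 libraries, without control 24 h replicate 1 (34467 counts, where 100000 was the minimum for a library), were filtered with filterByExpr, which left 19621 transcripts of 11904 genes. They were scaled by TMM and fitted with edgeR 4.0.16 (robust quasi-likelihood, 1 mean for each of the 4 groups) in R 4.3.3. P-values were two-sided, with Benjamini-Hochberg adjustment over every transcript in the fit. Calls needed an adjusted p under 0.05 and a log2 fold change beyond 0.75, except for the interaction, which needed the former alone. The SE of a log2 fold change is its size over the root of its F statistic. The scripts were tested on simulated data. Counting error limits the precision of low genes such as Olr1. Alternatives were all 13 libraries, DESeq2's size factors, no low-count filter, DESeq2 1.42.0, the compared groups alone, a replicate block, 1 transcript per symbol, the adjusted p alone, and leaving out each library. Library totals, other RefSeq rows, the view of the shallow library and the marker sum without Lyz2 were added after the data had been seen.

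The 10 genes, the related lists and the markers were chosen with earlier results of these data known. The text names all 10 genes, Acly, the listed genes called at a genotype comparison or the interaction, up to 4 per list with the largest change between times in control BMDMs, and the 3 genes most correlated with a member called at a genotype comparison or the interaction. Pecam1, Kdr and Cdh5 are named as markers. The values of 1 listed gene are not reported here, and it stays in the counts of its list.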

Additional observations from a re-analysis of the deposited data

Results flagged for a closer look

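In the 4 libraries labelled control 24 h, the value of replicate 1 lay far from the others for 7 of the 10 genes. The gap from it to its nearest neighbour, as a share of the range of the 4 libraries, was 0.904 for Cd36, 0.876 for Marco, 0.992 for Olr1, 0.932 for Stab1, 0.981 for Mrc1, 0.953 for Mertk and 0.997 for Gas6 and each passed Dixon's critical value at 95%. Chance alone would pass that value in about 1 of 20 groups of equal error. This library holds 34467 counts, and the gap takes no account of its counting error, so that this rate does not apply to it. For Mertk the gap rests on 4 counts, whose 95% Poisson interval (31.6 to 297 CPM of the library total) holds the range of the other 3 libraries (127 to 128), so that Mertk did not differ beyond counting error. For the other 6 genes the interval did not hold that range.

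The genotype effect differed between the LPS times for Stab1 and Axl. The log2 fold change of AclyM-KO over control BMDMs at 24 h minus that at 3 h was -0.597 for Stab1 and 0.327 for Axl, by the interaction term of edgeR's fit.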

How the results depend on the processing

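No member was called with the deletion at either time under any alternative that kept both thresholds, and 2 were called at each time by the adjusted p alone. Between the LPS times 7 to 8 members were called in control and 7 to 9 in AclyM-KO BMDMs. The interaction was called for 2 members, 1 with all 13 libraries, 0 when a fold beyond 0.75 was also required, and 1 to 3 when each library was left out. Over 15 same-number pairs, within and across genotypes, r ran from -0.08 to 0.12, 2 pairs were over 0.1, and 4 of 12 libraries correlated best with their own number. In AclyM-KO BMDMs, 3 h and 24 h libraries of the same number had r of 0.083, 0.050 and 0.094. Those of different numbers had -0.067 to 0.0004. In control BMDMs the same numbers had 0.0098 and 0.108, and different numbers -0.14 to 0.11. Whether libraries of the 2 times share a mouse was not tested, and the replicate block ties numbers across genotypes too. With a replicate block, the interaction was called for 1 member, Stab1, and not for Axl (0.24, adjusted p = 0.11). Under this block Axl at 24 h was 0.10 (adjusted p = 0.4), and Lrp1 had an interaction of -0.083, on the other side of 0. Over all genes, 239 were called at 3 h, 164 at 24 h, 4806 and 4992 between times and 1134 at the interaction, against 1835, 1653, 8921 and 9009 by the adjusted p alone and 234 at the interaction with a fold required. In the related lists these counts were 2, 4, 36, 39 and 14, against 21, 22, 61, 58 and 1. Without AclyM-KO 3 h replicate 1, 324 of all genes were called with the deletion at 3 h and 1641 at the interaction. Without AclyM-KO 3 h replicate 2 these were 205 and 1155. Some values changed sign. Under library totals, a scaling that moves all genes, the change between times was 0.19 in control and 0.074 in AclyM-KO BMDMs for Msr1 and 0.23 in AclyM-KO BMDMs for Mertk. With all 13 libraries Cd36 at 24 h was -0.0022. Mertk between times in control BMDMs was -0.02 with DESeq2's size factors and with its test (-0.021 and -0.016) and -0.0043 with 1 transcript per symbol. Leaving out each library gave -0.0595 to 0.0036 for Msr1 at 3 h, and at 24 h -0.11 to 0.12 for Cd36, -0.065 to 0.72 for Olr1 (0.43 in all 12 libraries), -0.21 to 0.10 for Lrp1 and -0.058 to 0.0012 for Gas6. It gave -0.023 to 0.040 and -0.076 to 0.044 for Mertk between times in control and AclyM-KO BMDMs, and interactions of -0.14 to 0.64 for Olr1 (0.35 in all 12 libraries), -0.027 to 0.28 for Lrp1 and -0.080 to 0.030 for Mertk. The cause of these changes was not tested. Control means at 24 h over all 4 libraries were 330 CPM for Cd36, 154 for Marco, 134 for Mrc1, 112 for Stab1 and 102 for Gas6. The other RefSeq rows of Msr1, Cd36 and Olr1 gave the same calls. Depth limits Olr1 at 24 h, at 1 to 8 counts per library.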
